A study of Mus musculus with 6 samples.

Results

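The sarcoplasmic reticulum of muscle fibres takes up and stores the calcium that each contraction releases, and 10 genes of this uptake and storage were followed in mouse gastrocnemius, a calf muscle, after loss of its nerve. They were chosen by name, as the rows of the deposited table called Atp2a1, Atp2a2, Sln, Pln, Casq1, Casq2, Pvalb, Hrc, Srl and Dhrs7c, and all 10 were found among its 22187 genes. Whole left gastrocnemius was taken from 3 normal male C57BL/6J mice aged 12 weeks and from 3 mice of the same sex, strain and age whose left sciatic nerve had been cut, with removal of a 2 mm segment, 2 weeks before. The controls were normal mice, so the operation itself cannot be told apart from the loss of the nerve, and no muscle mass or fibre size was used here. Each library is 1 mouse.

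In a resting fibre the SERCA pumps of the reticulum membrane move calcium from the cytosol into the lumen, at the cost of ATP. Small membrane proteins such as sarcolipin and phospholamban bind the pump and lower its activity, calsequestrin and other acidic proteins hold the calcium inside, and parvalbumin binds calcium in the cytosol of fast fibres. Fast fibres rely on the pump and calsequestrin forms encoded by Atp2a1 and Casq1, while slow fibres and the heart use the pump form of Atp2a2. Casq2 encodes the calsequestrin form of the heart, which slow fibres also express. The mouse gastrocnemius consists mostly of fast fibres.

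Levels are relative transcript abundances (TPM, which allows for the length of each gene) times a factor of the library, and can be compared between genes. They do not show how deeply a library was sequenced. The 6 column totals divided by their factors lay between 999951 and 999983. A log2 fold change is the mean log2(level + 1) of denervated mice less that of controls, tested with limma over 12392 genes, and a gene is called at an adjusted p below 0.05. The libraries carried the labels' sign of denervation: Chrna1, a subunit of the muscle acetylcholine receptor, was at 1.52, 1.58 and 1.88 in controls and at 102, 114 and 102 after denervation. Protein-coding rows made up 30.8% to 32.7% of the total in controls and 17.5% to 19.0% in denervated muscle, so directions depend in part on how libraries are scaled. This is given with each calcium gene it touches. Cell type markers are given as deposited only, and their counts and sums may shift under other scalings.

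All 10 genes passed the filter on low levels. Of these, 2 were higher and 7 lower in denervated muscle, and Pln was not called. Over all genes tested 22.9% were called higher and 24.3% lower, or 47.3% in either direction. The groups did not overlap for 9 of the 10 genes, against 57.5% of all genes tested. The median log2 fold change of the 10 genes was -1.24, and that of all tested genes was -0.01. In controls the order of mean levels from the top was Pvalb, Atp2a1, Casq1, Srl, Hrc, Dhrs7c, Casq2, Atp2a2, Pln and Sln. Neighbours in that order overlapped only for Pvalb with Atp2a1 and for Pln with Sln. After denervation it was Pvalb, Atp2a1, Sln, Casq1, Srl, Hrc, Atp2a2, Casq2, Pln and Dhrs7c, and only Pvalb with Atp2a1 and Sln with Casq1 overlapped. In bulk muscle, fewer fibres of a type and less RNA per fibre cannot be told apart.

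**Figure D1:**
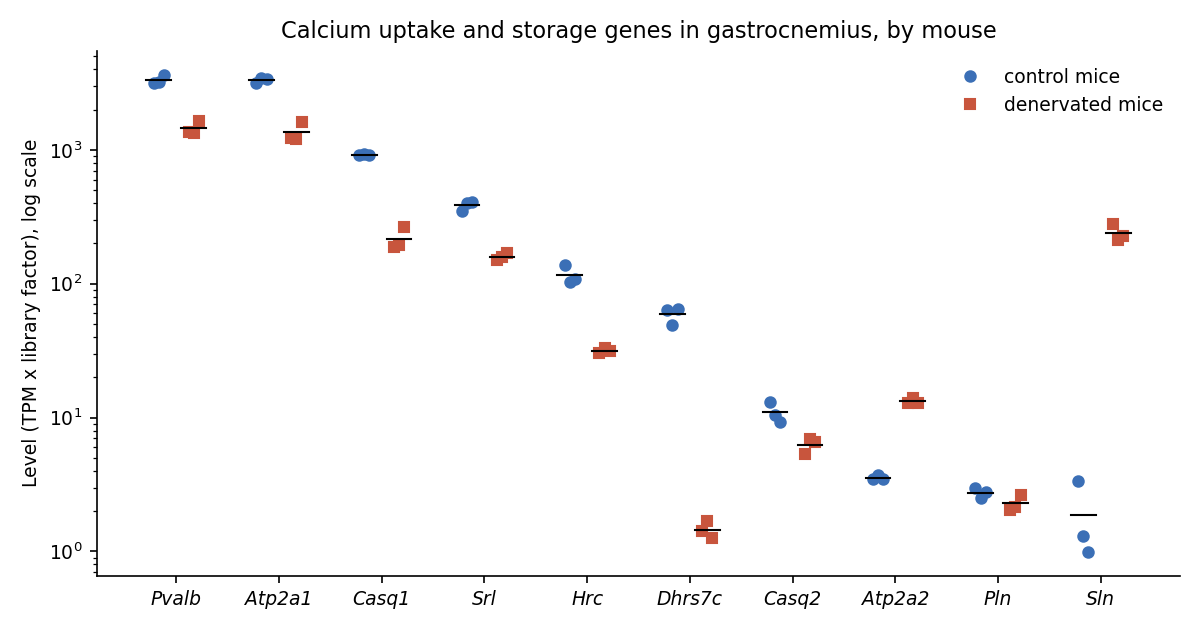
Level of each gene in each mouse on a log axis, with circles for the 3 control mice, squares for the 3 denervated mice and a bar for each group mean. Sln went from the lowest mean of the 10 genes in controls (1.89) to the third highest after denervation (239.8, with values that overlap those of Casq1), while Dhrs7c went from 59.1 to the lowest (1.45).

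The calcium pumps went in opposite directions. Atp2a1, which encodes SERCA1, the pump of fast fibres, was at 3168, 3423 and 3393 in the control mice and at 1217, 1213 and 1615 in the denervated mice. Every denervated mouse was below every control, and denervated 3 was the highest of its group. The level fell from 3328 ± 140 to 1348 ± 231 (SD, n = 3 each), which is 2.47-fold lower. The log2 fold change was -1.32 (SE 0.136, limma adjusted p = 0.000171). Under quantile normalization it was -0.56 and under equal protein-coding totals -0.42, both still called (adjusted p = 0.0229 and 0.0201). Atp2a1 was the 37th most abundant tested gene in controls and the 47th in denervated muscle.

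Atp2a2, which encodes SERCA2, the pump of slow fibres, the heart and most other cells, was at 3.47, 3.74 and 3.48 in controls and at 12.9, 14.0 and 12.9 after denervation. Both groups were narrow, with SDs of 4.33% and 4.95% of the mean. The level rose 3.72-fold (log2 fold change 1.64, SE 0.084, limma adjusted p = 5.83e-06), and its rank among tested genes went from 5886 to 2082. Other scalings put the log2 fold change between 1.64 and 2.42.

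Cells other than fibres also express Atp2a2. Marker counts and sums are as deposited, where 22.9% of all tested genes were called higher and 24.3% lower. Smooth muscle and pericyte markers had 8 of 8 tested members lower, with a summed level of 142 to 150 in controls and 58.5 to 66.6 after denervation. Macrophage and monocyte markers had 5 of 8 higher and none lower, with sums of 16.4 to 19.7 and 34.8 to 39.3. Slow-fibre markers had 3 of 8 higher and none lower, with sums of 14.3 to 24.7 and 67.1 to 85.8. Most of the rise of the sum came from Tnnt1 (mean 1.02 to 40.2) and Tnni1 (0.741 to 14.6). Myh7, the slow myosin and the third called, was at 0.473 to 0.585 and 1.53 to 2.98. Myl2, Myl3, Tnnc1, Tpm3 and Myh7b were not called. The part of these cells in the level of Atp2a2 was not tested.

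Sln, which encodes sarcolipin, an inhibitor of the pump, was at 3.36, 1.3 and 0.993 in controls and at 281, 212 and 227 in denervated mice. No denervated mouse came near the controls. The mean rose from 1.89 to 239.8, or 127-fold, and 209-fold without control 1, whose level was the highest of its group. The log2 fold change was 6.46 (SE 0.276, limma adjusted p = 2.69e-06). Among the 12392 tested genes it was the second largest rise. Its rank from the top lay between 1 and 3 when any 1 library was left out, and was 15 with a pseudocount of 0.1 and 48 with 0.01. In abundance, Sln went from rank 8132 to rank 124.

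In larger mammals sarcolipin is abundant in fast muscle, and in adult mice it is best known from the atria and from slow and oxidative muscle. Heart markers went apart. Of the 3 tested 2 were higher and none lower as deposited, against 22.9% of all tested genes higher. The summed level of the list was 2.63 to 3.72 in controls and 22.7 to 27.9 after denervation. Myh6, Nppa, Tnni3 and Myl7 were each at 1.07 or less in all 6 mice, and Myl7 was listed at 0 in the 3 controls. Tnnt2 and Myl4, which developing skeletal muscle also expresses, rose from 0.348 ± 0.1695 to 4.39 ± 0.823 and from 1.72 ± 0.293 to 20.5 ± 3.02, with log2 fold changes of 2.00 and 2.98 (limma adjusted p = 3.13e-05 and 3.32e-06). The part of these markers in the level of Sln was not tested.

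Pln, which encodes phospholamban, the pump inhibitor of the heart and of slow muscle, was at 2.97, 2.503 and 2.76 in controls and at 2.05, 2.15 and 2.65 after denervation. The groups overlapped. The log2 fold change was -0.19 (SE 0.106, limma adjusted p = 0.174). It turned to 0.06 (adjusted p = 0.674) once library totals were matched without the 20 most abundant genes and to 0.45 (adjusted p = 0.0048) with equal protein-coding totals. The transcripts of Cep85l, a centrosomal protein gene, run through Pln on the opposite strand, and 56.2% of the stretches of 50 bases in Pln transcripts occur in reverse in those of Cep85l and Gm47644. The sources used here do not say whether strand was kept, so reads of both genes cannot be told apart. Cep85l, listed as Gm9766, was at 15.1, 10.8 and 15.0 in controls and at 1.80, 3.24 and 1.70 after denervation.

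Both calsequestrin genes were lower as deposited, and only Casq1 kept that direction under equal protein-coding totals. Casq1, which encodes the main calcium-storing protein of the fast-fibre reticulum, was at 918, 926 and 917 in controls and at 189, 194 and 263 in denervated mice. The controls lay within an SD of 0.506% of their mean, against 19.2% after denervation, where denervated 3 was again highest. The fall was 4.27-fold (log2 fold change -2.11, SE 0.136, limma adjusted p = 1.67e-05). All 6 scalings kept it below 0, between -2.11 and -1.21.

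Casq2, the calsequestrin of the heart that slow fibres also express, was at 13.1, 10.4 and 9.30 in controls and at 5.32, 6.88 and 6.56 after denervation. The groups did not overlap. Its log2 fold change was -0.71 (SE 0.141, limma adjusted p = 0.00447), but 0.09 (adjusted p = 0.584) with equal protein-coding totals, so the direction as deposited does not hold under that scaling. The pump and calsequestrin forms of the heart did not share a direction as deposited, with Atp2a2 at 1.64 and Casq2 at -0.71 on the log2 scale.

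Other proteins of the reticulum lumen and membrane were also lower. Hrc, which encodes the histidine-rich calcium-binding protein of the lumen, was at 139, 103 and 108 in controls and at 30.3, 32.8 and 31.5 after denervation. The denervated mice lay close together, with an SD of 3.96% of the mean. The level fell 3.70-fold (log2 fold change -1.84, SE 0.123, limma adjusted p = 1.97e-05). Srl, which encodes sarcalumenin, a calcium-binding glycoprotein beside the pump, was at 349, 399 and 410 in controls and at 151, 158 and 168 after denervation. It fell 2.43-fold (log2 fold change -1.27, SE 0.097, limma adjusted p = 3.75e-05). With equal protein-coding totals the log2 fold change of Hrc was -0.96 and that of Srl -0.38, both still called.

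Dhrs7c had the deepest fall. It encodes a short-chain dehydrogenase of the reticulum, also named SRP-35, that has been linked to retinol metabolism in muscle. It was at 63.1, 49.3 and 64.8 in controls and at 1.43, 1.69 and 1.25 after denervation. The lowest control was far above the highest denervated mouse. The level fell 40.6-fold (log2 fold change -4.61, SE 0.128, limma adjusted p = 4.34e-07). As deposited this was the largest fall among the 12392 tested genes, and it was also ranked first from the bottom under each of the 5 other scalings. It ranked second without denervated 3 and with a pseudocount of 0.1, and 11th with 0.01. In abundance Dhrs7c went from rank 514 to rank 9103.

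**Figure D2:**
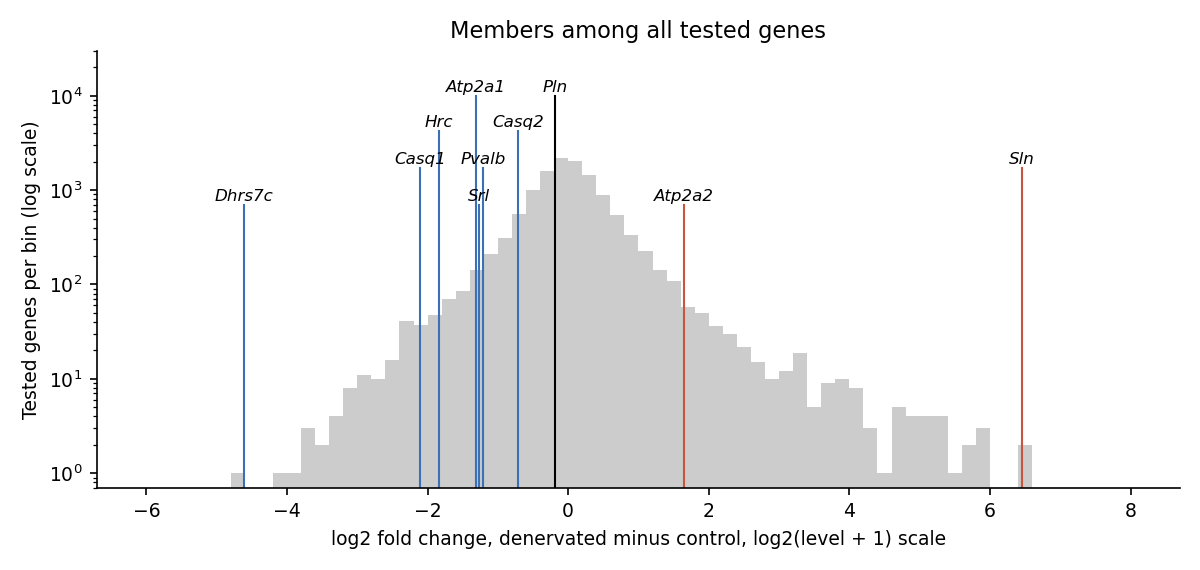
Log2 fold changes of the 12392 tested genes in bins of 0.2, with a log count axis, and the 10 genes as lines (red higher, blue lower, black not called). Dhrs7c at -4.61 lies at the far left and Sln at 6.46 near the far right, while Atp2a1, Srl and Pvalb lie together between -1.32 and -1.21.

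Pvalb, which encodes parvalbumin, the calcium buffer of the fast-fibre cytosol, was at 3140, 3217 and 3646 in controls and at 1355, 1328 and 1655 after denervation. The groups did not overlap. The level fell 2.31-fold (log2 fold change -1.21, SE 0.126, limma adjusted p = 0.000177). Quantile normalization gave -0.37 and ended the call (adjusted p = 0.0549), and equal protein-coding totals gave -0.31 (adjusted p = 0.0437). In both groups Pvalb and Atp2a1 were the most abundant of the 10 genes, with overlapping values.

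Fast-fibre markers moved with these falls. Of 9 contractile markers 8 were lower and none higher as deposited, against 24.3% of all tested genes lower. Their summed level was 21318 to 25690 in controls and 7880 to 8912 after denervation. The size of this fall depends on the scaling, and other scalings of the markers are not given. The part of a change in fast fibres in the falls of Atp2a1, Casq1 and Pvalb was not tested. Together the 10 genes held 2.37% ± 0.115 of the protein-coding total in controls and 1.87% ± 0.231 in denervated muscle (SD, n = 3 each), and the groups did not overlap.

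Bases before the start site are shown for the fast-fibre storage and uptake genes that fell, and for Casq2 as the heart form of calsequestrin. The RefSeq table of promoters on GRCm38.p6, a later build than the one the submitters name, matched 6 of the 10 genes. Each line gives the 250 bases before the start, 5′ to 3′ on the strand of the gene. Capitals mark the E-box CANNTG, the site of myogenic factors such as myogenin, and the MEF2 motif, each searched on both strands. Atp2a1 is at chr7:126463074-126463323 on the minus strand, Casq1 at chr1:172219896-172220145 on the minus strand, and Hrc at chr7:45335019-45335268 on the plus strand. Pvalb, by the first of its 2 starts, is at chr15:78206401-78206650 on the minus strand, and Casq2 at chr3:102086165-102086414 on the plus strand.
Atp2a1: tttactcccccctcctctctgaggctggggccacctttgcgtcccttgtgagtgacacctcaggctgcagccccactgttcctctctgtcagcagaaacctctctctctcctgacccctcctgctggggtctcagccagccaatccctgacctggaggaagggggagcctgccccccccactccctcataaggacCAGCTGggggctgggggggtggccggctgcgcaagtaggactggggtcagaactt
Casq1: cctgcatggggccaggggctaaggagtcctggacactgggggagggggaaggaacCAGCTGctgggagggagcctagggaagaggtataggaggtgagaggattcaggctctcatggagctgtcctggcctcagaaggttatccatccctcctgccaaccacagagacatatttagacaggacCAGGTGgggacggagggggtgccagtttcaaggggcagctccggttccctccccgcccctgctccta
Hrc: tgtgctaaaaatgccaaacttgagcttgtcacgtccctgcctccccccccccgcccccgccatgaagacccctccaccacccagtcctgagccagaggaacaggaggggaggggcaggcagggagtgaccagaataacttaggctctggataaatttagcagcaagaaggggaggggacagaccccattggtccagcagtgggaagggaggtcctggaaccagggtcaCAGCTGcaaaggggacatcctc
Pvalb: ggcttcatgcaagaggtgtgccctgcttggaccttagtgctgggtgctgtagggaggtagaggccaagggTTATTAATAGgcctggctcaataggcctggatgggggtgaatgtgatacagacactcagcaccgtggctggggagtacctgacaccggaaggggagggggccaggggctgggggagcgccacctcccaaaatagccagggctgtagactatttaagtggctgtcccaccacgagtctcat
Casq2: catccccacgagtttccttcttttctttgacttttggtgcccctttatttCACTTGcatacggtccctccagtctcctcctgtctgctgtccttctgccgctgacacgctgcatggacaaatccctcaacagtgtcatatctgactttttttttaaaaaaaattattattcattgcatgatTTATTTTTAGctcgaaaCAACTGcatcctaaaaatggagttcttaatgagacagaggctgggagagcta

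In these windows Atp2a1 and Hrc held 1 E-box each, Casq1 and Casq2 held 2 each, and Pvalb held none before its first start. The form CAGCTG occurred in 3 of the 6 matched genes, at base -55 of Atp2a1, -195 of Casq1 and -22 of Hrc, counted back from the start, and not in the windows of Casq2, Pvalb or Pln. That form was singled out after the windows had been read, and 13.0% of 32851 windows of the table hold it. Any E-box was present in 66.2% of windows, so its presence is common. The MEF2 motif was found once in Pvalb and once in Casq2 and overlapped no E-box there, and 2.92% of all windows hold it. Pln had 1 E-box and no MEF2 motif. These matches describe letters in the window, and binding was not measured.

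Ratios within a library do not depend on a factor applied to the whole library, but quantile normalization, which is not 1 factor per library, did move some of them. There were 9 such shares and ratios, each tested with an exact two-sided permutation test over the 6 mice, which cannot give a p below 0.1. The smallest value of this test after adjustment over the 9 was 0.129.

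SERCA2 remained a small part of the pump transcripts. Of every 100 transcripts of Atp2a1 and Atp2a2, Atp2a2 made up 0.109, 0.109 and 0.102 in controls and 1.05, 1.14 and 0.790 in denervated mice. The share was 9.28 times as high after denervation without overlap (exact p = 0.1), and Atp2a1 still held the remainder.

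Inhibitor transcripts stood higher against pump transcripts in every denervated mouse. Sln and Pln together were at 0.1996, 0.111 and 0.111 transcripts per 100 pump transcripts in controls and at 23.0, 17.4 and 14.1 after denervation. This is 1 Sln or Pln transcript per 712 pump transcripts in controls and 1 per 5.50 in denervated muscle, taken from the group means. Mrln, another pump inhibitor given below, was left out of this ratio. Its mean was 18.95 in controls, above those of Sln (1.89) and Pln (2.75), and 16.4 after denervation. The log2 ratio differed by 7.05 (exact p = 0.1, higher in 3 of 3 denervated mice). Sln made up 53.1%, 34.2% and 26.4% of the Sln and Pln transcripts in controls and 98.8% to 99.3% after denervation. In controls Sln and Pln had overlapping levels. As stated above, reads of Pln and Cep85l cannot be told apart, so the Pln part of this share and ratio is uncertain.

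Relative to Atp2a1, the genes Casq1, Hrc and Dhrs7c were lower in every denervated mouse than in any control, while Pvalb and Srl overlapped. Casq1 was at 28.99, 27.04 and 27.03 transcripts per 100 of Atp2a1 in controls and at 15.5, 16.0 and 16.3 after denervation (log2 difference -0.80, exact p = 0.1; -1.31 under quantile normalization). Hrc went from 3.53 ± 0.749 to 2.38 ± 0.389 per 100 (SD, n = 3 each) and Dhrs7c from 1.78 ± 0.297 to 0.111 ± 0.0313, both without overlap (exact p = 0.1 each). The log2 difference of Hrc to Atp2a1 was -0.56, but -1.27 under quantile normalization. Pvalb was at 94.0 to 107 per 100 in controls and at 103 to 111 after denervation (log2 difference 0.11, exact p = 0.2). Srl was at 11.02 to 12.1 and 10.4 to 13.0 per 100 (log2 difference 0.04, exact p = 0.7), and the sign of this difference turned without denervated 2 (-0.02) and under quantile normalization (-0.58). For Pvalb and Srl the mice overlapped as deposited. Casq2 made up 1.17% ± 0.206 of calsequestrin transcripts in controls and 2.86% ± 0.503 after denervation, without overlap (SD, n = 3 each, exact p = 0.1).

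**Figure D3:**
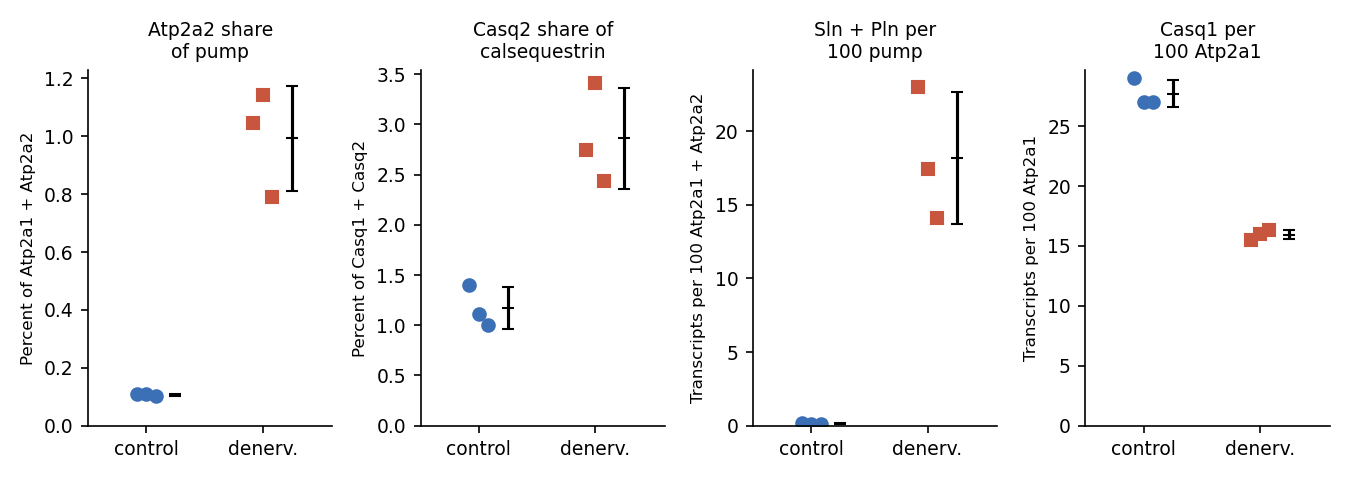
Within-library shares and ratios in each mouse (circles control, squares denervated, bars mean and SD of 3 mice), on linear axes from 0. The Atp2a2 share of pump transcripts, the Casq2 share of calsequestrin and Sln plus Pln per 100 pump transcripts are higher in every denervated mouse. Casq1 per 100 Atp2a1 is lower in every one.

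The 10 genes were also set against the median of all genes under each scaling. Relative to the median of all tested genes, which was -0.01 as deposited and 0.61 with equal protein-coding totals, Casq1 lay between -2.10 and -1.82 under the 6 scalings. Dhrs7c lay between -4.596 and -4.52, Hrc between -1.83 and -1.57 and Atp2a2 between 1.65 and 1.81. Casq2 lay between -0.70 and -0.52 and Pln between -0.19 and -0.16. The widest ranges were those of the most abundant pair, with Atp2a1 between -1.30 and -0.52 and Pvalb between -1.20 and -0.33.

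**Figure D4:**
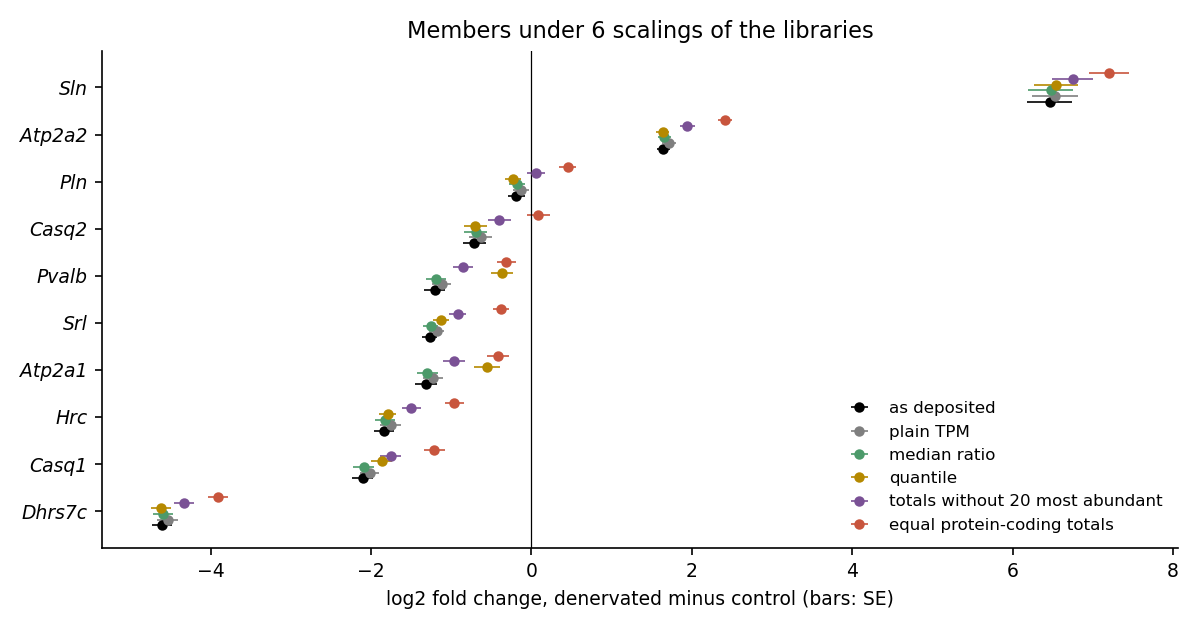
Log2 fold change with its SE for each gene under 6 scalings of the libraries. Sln and Atp2a2 lie above 0 and Atp2a1, Casq1, Hrc, Srl, Pvalb and Dhrs7c below 0 under all 6, while Casq2 (0.09) and Pln (0.45) cross 0 with equal protein-coding totals.

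The profiles most alike, by the root mean square difference of centred log2 levels over the 6 libraries, came from several kinds of gene. Nearest to Atp2a1 were Ak1, adenylate kinase (difference 0.044), Gys1, muscle glycogen synthase (0.055), and Atp1b2, a subunit of the sodium pump (0.057). Nearest to Casq1 were Dkk3 (0.077), Maf (0.084) and Sema6c (0.088). Nearest to Atp2a2 were Arl6ip5 (0.055), Elk1 (0.058) and the ferritin gene Fth1 (0.060). Nothing lay as near to Sln, for which Aif1l (0.281), Cpne2 (0.436) and Krt18 (0.478) came first. With 2 groups in 6 libraries, these distances mostly reflect the group difference.

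The wider calcium system was followed in 6 lists of other genes, of which 80 were in the table and 71 were tested. Of these 14 were higher, 28 lower and 29 not called, or 33.3% of calls higher, with a median log2 fold change of -0.12. When totals were matched without the 20 most abundant genes, 30 were higher and 20 lower (60% higher), and with equal protein-coding totals 49 and 8 (86.0% higher). Of the 28 genes lower as deposited, 15 stood above 0 with equal protein-coding totals and 8 of these were called higher. Over all 12392 genes, 2840 were called higher and 3017 lower as deposited. The counts were 4966 and 1614 without the 20 most abundant genes, and 9036 and 668 with equal protein-coding totals. Counts below are as deposited unless a scaling is named.

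Among pump regulators and other transporters 1 of 11 tested genes was higher and 6 lower, against 22.9% and 24.3% of all tested genes. The counts were 3 and 3 without the 20 most abundant genes and 6 and 1 with equal protein-coding totals. Under equal protein-coding totals 9036 of all 12392 genes were called higher and 668 lower. The median was then 0.28 for this list and 0.61 for all tested genes. Tmem38b, a potassium channel of the reticulum known as TRIC-B, rose from 4.002 ± 0.640 to 10.05 ± 0.320, whereas its muscle relative Tmem38a (TRIC-A) went from 268 ± 9.27 to 171 ± 8.80 (log2 fold change -0.64, but 0.25 with equal protein-coding totals). Slc8a3, a sodium-calcium exchanger of muscle, fell from 10.6 ± 2.38 to 3.79 ± 0.616, and Atp2b4, a calcium pump of the cell surface, from 2.38 ± 0.441 to 1.24 ± 0.154, a call lost with equal protein-coding totals (adjusted p = 0.851). Mrln, which encodes myoregulin, another small inhibitor of SERCA, is listed as 2310015B20Rik. Its level was 20.5, 13.0 and 23.3 in controls and 17.3, 19.6 and 12.4 after denervation, with overlap and no call (limma adjusted p = 0.559). It was named after its values were seen.

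Release and triad genes had 4 of 18 higher and 10 lower as deposited, with a median of -0.39, but 11 higher and 1 lower with equal protein-coding totals, with a median of 0.38. Of the 10 lower genes 7 then stood above 0, and 3 of these were called higher. Jph2 and Jph1, the junctophilins that hold the reticulum to the surface membrane, fell from 34.3 ± 1.23 to 12.0 ± 1.11 and from 57.1 ± 3.85 to 27.1 ± 1.01. Trdn, triadin, which ties calsequestrin to the release channel, fell from 120 ± 4.18 to 58.5 ± 3.90. Cacng1, a subunit of the voltage sensor, rose from 115 ± 3.39 to 258 ± 13.5, Bin1, which shapes the transverse tubules, from 74.8 ± 5.19 to 124 ± 1.93, and Fkbp1a, which binds the release channel, from 10.9 ± 1.65 to 18.7 ± 2.76. With equal protein-coding totals Jph1 and Trdn were no longer called (-0.17 and -0.14).

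In the list of reticulum calcium-binding and store-sensing genes, 3 of 17 were higher and 2 lower as deposited, with a median of 0.11. Of all tested genes 47.3% were called in either direction. Not every protein of the list lies in the reticulum, as for Orai1 below. The count was 11 higher and none lower without the 20 most abundant genes, and 16 higher and none lower with equal protein-coding totals (median 0.87). Of all 12392 tested genes 4966 and 9036 were called higher under these scalings, and the median with equal protein-coding totals was 0.61. Canx, the chaperone calnexin, went from 16.9 ± 1.85 to 24.4 ± 1.75, Stim2, a calcium sensor, from 13.4 ± 0.658 to 17.8 ± 0.892, and Nucb1, nucleobindin, from 10.3 ± 0.483 to 13.7 ± 0.350. The log2 fold changes were 0.51, 0.39 and 0.38, all called. Rcn3 (-0.41) and Orai1 (-0.40) were called lower. Rcn3 lost the call without control 1 (adjusted p = 0.0557), without control 2 (0.0537) and without denervated 1 (0.0642). Orai1, the surface channel of store refilling, lost it without control 2 (adjusted p = 0.0732), without control 3 (0.077), without denervated 1 (0.0881) and without denervated 2 (0.0804). Both turned positive with equal protein-coding totals (0.33 and 0.42).

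Cytosolic calcium-binding genes had 2 of 9 higher and 3 lower, against 22.9% and 24.3% of all tested genes. With equal protein-coding totals they had 7 higher and 1 lower, where all 12392 genes had 9036 and 668. Calm2, which encodes the calcium sensor calmodulin, fell from 60.9 ± 4.98 to 16.4 ± 1.20. Calm3, which encodes the same protein, went from 117 ± 14.7 to 63.5 ± 2.82 (log2 fold change -0.87, but 0.02 with equal protein-coding totals). Pdcd6, also a calcium-binding protein, rose from 3.90 ± 0.163 to 5.54 ± 0.181. S100a10 had -0.40 and lost its call without control 1 (adjusted p = 0.0504), without control 2 (0.107), without denervated 1 (0.121) and without denervated 3 (0.109), and it turned to 0.40 with equal protein-coding totals. The list also had 2 lower genes in place of 3 with quantile normalization and with TPM without the library factor. The same count was found without the 20 most abundant genes and with no filter.

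Mitochondrial uptake genes had 2 of 6 higher and 1 lower, against 22.9% and 24.3% of all tested genes. With equal protein-coding totals they had 5 higher and none lower, where all 12392 genes had 9036 and 668. Micu2, a regulator of the mitochondrial calcium channel that is listed as Efha1, rose from 5.61 ± 0.484 to 8.80 ± 0.647. Micu3, listed as Efha2, fell from 2.56 ± 0.244 to 1.23 ± 0.130, a call lost with equal protein-coding totals (adjusted p = 0.332).

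Kinases and phosphatases tied to the reticulum had 2 of 10 higher and 6 lower, with a median of -1.04. With equal protein-coding totals they had 4 higher and 5 lower, with a median of -0.19. All 12392 tested genes had 22.9% higher and 24.3% lower as deposited. Under equal protein-coding totals 9036 of them were higher and 668 lower, with a median of 0.61. The genes of calmodulin-dependent kinase II went both ways. Camk2a, whose gene in muscle also makes an anchor of the kinase at the reticulum, fell from 43.6 ± 1.44 to 5.32 ± 0.660 (log2 fold change -2.82, limma adjusted p = 1.36e-06). Camk2d rose from 9.67 ± 0.736 to 31.7 ± 2.76 and Camk2b from 29.6 ± 2.05 to 50.3 ± 10.3. Ppp1r3a, which brings protein phosphatase 1 to glycogen and the reticulum, fell from 57.7 ± 4.89 to 12.5 ± 1.55, and Ppp1r1a, an inhibitor of that phosphatase, from 5.23 ± 0.775 to 1.07 ± 0.316.

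**Figure D5:**
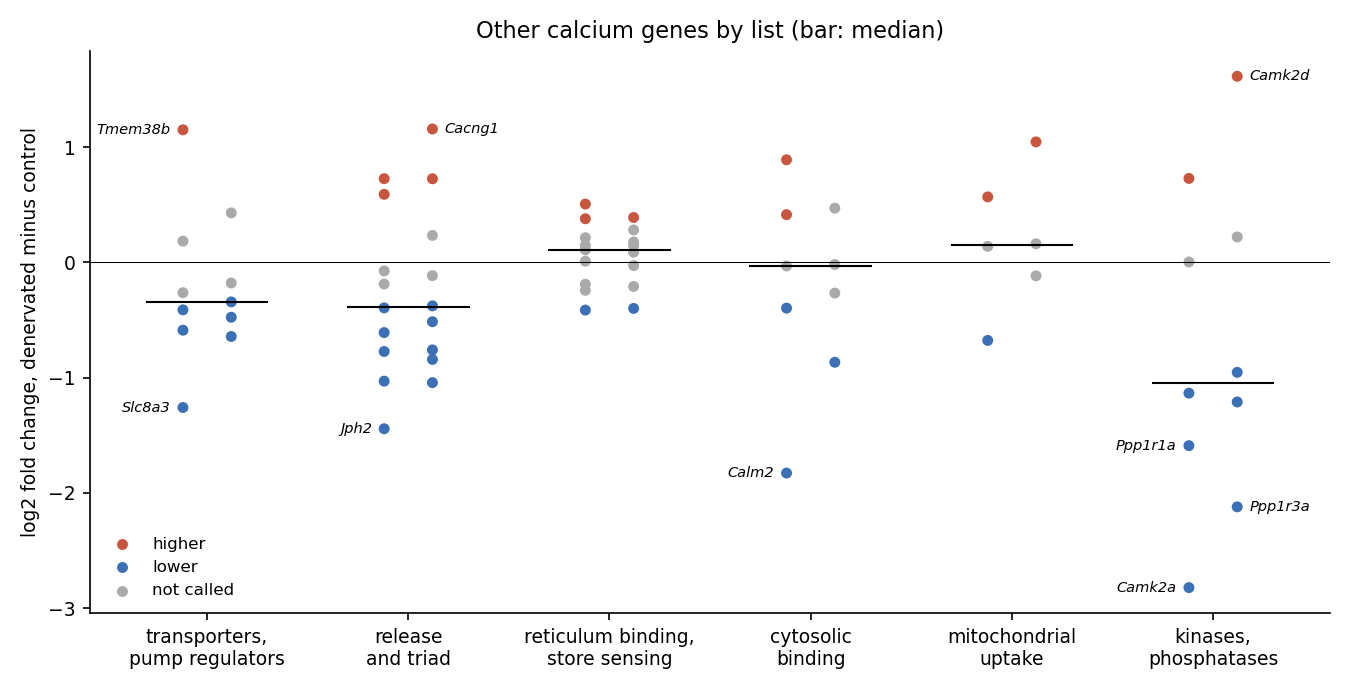
Log2 fold changes of the 71 tested genes of 6 other calcium lists as deposited (red called higher, blue called lower, grey not called, bar list median). Camk2a (-2.82) and Ppp1r3a (-2.12) lie lowest and Camk2d (1.62) highest, while the genes of the reticulum binding and store sensing list lie close to 0.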

How the data were processed

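RNA of whole gastrocnemius was sequenced by the authors from 3 control and 3 denervated mice, as paired-end reads of 50 bases, per the labels' protocols. The submitters' processing notes list Bowtie2 2.2.9, RSEM 1.3.0 and edgeR 3.12.1 beside the genome NCBIM37 and do not say what each was used for. The table deposited by the authors holds an expression signal with no unit named. In each column 100% of the values above 0 and below 100 lay within 0.00055 of a multiple of 0.01 times a library factor (0.977 to 1.13), as TPM times that factor would give. Counts are not used here, so depth is unknown and no counting interval was computed.

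Levels of 0.5 or more in at least 3 libraries were required, which left 12392 genes. They were compared as log2(level + 1), which understates the change of low genes, with limma 3.58.1 in R 4.3.3 (trend, two-sided, Benjamini-Hochberg over all genes tested). The count test planned for a table of counts was replaced by this one. The procedure was tested on simulated data. The 10 genes, the lists and the tests were chosen with earlier results of these data known. From each list up to 3 called genes with the largest rise and 3 with the largest fall are named, and any other is said to have been chosen later. Some genes that this rule takes are not reported here. Of the listed calcium genes, Strit1, Arln and Ocm were not matched. Shared stretches of 50 bases were counted in GENCODE M21 transcripts. Atp2a1 shared 18.04% of its stretches, nearly all in reverse with Rabep2, which was at 11.2 to 17.9 in the 6 libraries, and 3.93% were shared for Atp2a2, 3.08% for Casq1 and under that for the others except Pln. Other scalings, filters, pseudocounts, variance models, left-out libraries and a replicate block were the alternatives.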

Additional observations from a re-analysis of the deposited data

How the results depend on the processing

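Over 18 alternatives, 2 to 3 of the 10 genes were higher and 6 to 7 lower. The exceptions to 2 and 7 were Pvalb, lost with quantile normalization, and Casq2 (lost) and Pln (gained as higher) with equal protein-coding totals. Leaving out any 1 library ended none of these 9 calls (largest adjusted p = 0.0184, for Casq2). The libraries share replicate numbers, but same-numbered libraries did not deviate together (correlations of -0.007, -0.099 and 0.019). Libraries of different numbers had correlations from -0.126 to 0.120. No pairing was seen, but these few correlations cannot exclude a weak one. A replicate block gave 2 higher and 7 lower, and 14 higher and 26 lower other calcium genes. Other calcium genes called higher numbered 30 with totals without the 20 most abundant genes and 49 with equal protein-coding totals, which left 8 lower. Over all tested genes, those scalings called 4966 and 9036 higher. With equal protein-coding totals 15 of the 28 other calcium genes called lower turned above 0, 7 of them release and triad genes. Among the genes named, the direction turned for Pln (0.45), Casq2 (0.0866), Tmem38a (0.25), Rcn3 (0.33), Orai1 (0.42), Calm3 (0.019) and S100a10 (0.40), and Pln stood at 0.0585 with totals without the 20 most abundant genes. Quantile normalization, which is not 1 factor per library, put the gain of the Atp2a2 share at 0.639 percentage points (0.886 as deposited). It put the log2 difference of Sln plus Pln to pump at 6.36, Casq1 to Atp2a1 at -1.31, Hrc to Atp2a1 at -1.27 and Srl to Atp2a1 at -0.58. The last was 0.04 as deposited and ran from -0.025 to 0.137 on leaving out 1 library. The cause of these shifts was not tested. DESeq2 was not run, since the table holds no counts. Depth is unknown, so the precision of low levels such as those of Sln and Pln in controls rests on 3 mice alone.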
